A study of Mus musculus with 14 samples.

Results

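The 7 genes described here were Grik3, Ndufs5, Ndufs5-ps, Zbtb8b, Tent5b, Wdfy1 and AA465934, out of 55414 genes in the table of counts. They were chosen by their read counts, because they separated the db/db libraries from every library of the ob model in granulosa cells (GCs). Their differences between the models are therefore given as a description, with no p-value. They were named with results of all 14 libraries known, so their values in CT db are a description too. The sequences of the pair Ndufs5 and Ndufs5-ps were not used in the choice.

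Poly(A) RNA was sequenced from GCs of antral follicles in 14 libraries, each made from about 50 cells. The db model had 4 libraries from mutant db/db mice (genotype db/db -/-, strain B6.BKS(D)-Lepr db/J), which lack the long isoform of the leptin receptor, and 4 from their lean littermate controls (CT db, genotype db/db +/+). The ob model had 3 libraries from mutant ob/ob mice (genotype ob/ob -/-, strain B6.Cg-Lep ob/J), which lack leptin, and 3 from lean littermate controls (CT ob, genotype ob/ob +/+). The mice were 12 weeks old. Model and colony cannot be told apart, because mutants and controls of a model came from 1 colony and no group was shared. The labels call the controls wild type, while the column names of the control libraries (het_ and obHet_) read as heterozygous, and the files do not settle which holds. The labels do not say whether each library came from a separate animal, so the p-values below measure only the spread between these libraries. Total counts per library lay between 2204686 and 3059777 for db/db, 3624237 and 4840714 for CT db, 5306632 and 8367593 for ob/ob, and 3664219 and 4847166 for CT ob. Levels are given as CPM, which scales the counts of every library to the same total, with TMM factors. A level of 3 counts, taken as the floor of detection, was 0.371 to 1.31 CPM in these libraries. The reads carried no molecular identifiers, so floors and counting intervals cover counting error only.

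Inbred colonies that were bred apart, or that carry a mutation moved from another strain, can differ at many places in the genome besides the mutation itself. A piece of the donor chromosome usually stays around the selected mutation, and the animals of a colony that still segregates such a piece can differ from each other. A processed pseudogene is a copy of a spliced messenger RNA that was inserted into the genome, so its sequence can be nearly that of its parent gene and short reads may match both.

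The mutated genes were too low to serve as a check of the labels. Lepr, the leptin receptor gene on chromosome 4 (chr4:101574601-101676237, GRCm39), had at most 3 counts in a db/db library and at most 6 in a CT db library, and between 4 and 17 in the ob/ob and 3 and 12 in the CT ob libraries. Lep, the leptin gene on chromosome 6 (chr6:29060216-29073877), was at 0 in the 8 db model libraries and had at most 3 counts in any library of the ob model. The cell type of the labels could be checked. All 12 of the 12 granulosa markers listed had counts in each of the 14 libraries, and the most abundant was Gja1, a gap junction protein, except for Inha in obHet_68.

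Grik3 encodes a kainate-type glutamate receptor subunit and lies on chromosome 4 (ENSMUSG00000001985, chr4:125384202-125607966, plus strand). Its levels in the 4 db/db libraries were 72.8 CPM in HOM_24, 82.6 in HOM_53, 83.6 in HOM_68 and 69.1 in HOM_81. The controls of that model held 23.2 CPM in het_37, 30 in het_51, 48.0 in het_69 and 74.9 in het_75. Only het_75 of the CT db libraries lay within the range of db/db, and the other 3 lay below it. The ob/ob libraries had 3.13 CPM in obHOM_106, 1.81 in obHOM_41 and 3.47 in obHOM_50. The CT ob libraries had 6.36 CPM in obHet_60, 2.51 in obHet_65 and 3.77 in obHet_68. Every db model library was above every ob model library. The order of the group means was db/db (77.0 ± 7.17, SD, n = 4), CT db (44.0 ± 23.1, n = 4), CT ob (4.22 ± 1.96, n = 3) and ob/ob (2.80 ± 0.875, n = 3). Neighbours in that order overlapped within each model and not between CT db and CT ob. The mean of db/db was 22.0 times that of the 6 ob model libraries.

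Ndufs5 encodes an accessory subunit of complex I of the respiratory chain (ENSMUSG00000028648, chr4:123606481-123612002, minus strand). It had 1.29 CPM in HOM_24, 0.432 in HOM_53, 3.05 in HOM_68 and 2.2 in HOM_81, from 1 to 7 counts per library. In the CT db group it had 10.7 CPM in het_37, 16.9 in het_51, 1.38 in het_69 and 0 in het_75. This group thus split into a pair above all of db/db and a pair within or below its range. In the ob model the levels were 24.3, 35.4 and 27.2 CPM in obHOM_106, obHOM_41 and obHOM_50, and 26.4, 20.1 and 53.5 CPM in obHet_60, obHet_65 and obHet_68. All 6 were above every db model library. The group means were ordered CT ob (33.3 ± 17.8), ob/ob (29.0 ± 5.72), CT db (7.26 ± 8.01) and db/db (1.74 ± 1.13), with overlap within each model and none between ob/ob and CT db. The ob model mean was 17.9 times the db/db mean. The ratio of the pooled counts was 16.8, with a 95% counting interval of 10.6 to 28.4.

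Ndufs5-ps, a processed pseudogene of Ndufs5 on chromosome 16 (ENSMUSG00000081824, chr16:42775994-42776312, plus strand), had the opposite pattern. It had 20.6 CPM in HOM_24, 38.5 in HOM_53, 28.7 in HOM_68 and 26.1 in HOM_81. The CT db levels were 10.7 CPM in het_37, 11.6 in het_51, 30.1 in het_69 and 20 in het_75. Within CT db, the libraries with the most Ndufs5, het_37 and het_51, had the least Ndufs5-ps. The ob/ob libraries had 0.521, 0.696 and 0.248 CPM in obHOM_106, obHOM_41 and obHOM_50, and the CT ob libraries had 0.386, 0.251 and 0.343 CPM in obHet_60, obHet_65 and obHet_68, from 1 to 5 counts each. No ob model library reached the lowest db model library. The order of the means was db/db (28.5 ± 7.50), CT db (18.1 ± 9.02), ob/ob (0.488 ± 0.226) and CT ob (0.327 ± 0.0689), with overlap within the models only. The mean of the ob model was under the floor of detection, with fewer than 3 counts in 4 of its 6 libraries, so the ratio is uncertain. The db/db mean was 46.5 times that floor, and the ratio of pooled counts was 66.8 with a 95% counting interval of 39.2 to 124.

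Counted together, Ndufs5 and Ndufs5-ps overlapped between all 4 groups. Their summed level was 30.2 ± 7.12 CPM for db/db and 25.4 ± 5.5 for CT db, and 29.5 ± 5.87 for ob/ob and 33.7 ± 17.8 for CT ob. With the pair summed, the difference averaged over genotypes was a log2 fold change of -0.18 between the db and ob models (SE 0.213), a description with no test. What differed between the libraries was the share of the pair's counts that was assigned to the pseudogene. That share was 94.1% of 51 counts in HOM_24, 98.9% of 90 in HOM_53, 90.4% of 73 in HOM_68 and 92.2% of 90 in HOM_81. It was 50.0% in het_37 (Wilson 95% interval 39.0 to 61.0, 76 counts), 40.6% in het_51 (32.6 to 49.1, 133 counts), 95.6% in het_69 (90.1 to 98.1, 114 counts) and 100% in het_75 (95 to 100, 73 counts). The db/db intervals lay between 81.5% and 99.8%. In the ob model the share ran from 0.637% in obHet_68 to 2.10% in obHOM_106, with no interval reaching above 6.67%. The libraries thus fell into sets that did not overlap. The 6 ob model libraries were near 0, het_37 and het_51 were intermediate, and het_69, het_75 and the 4 db/db libraries were at 90.4% or more.

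**Figure D1:**
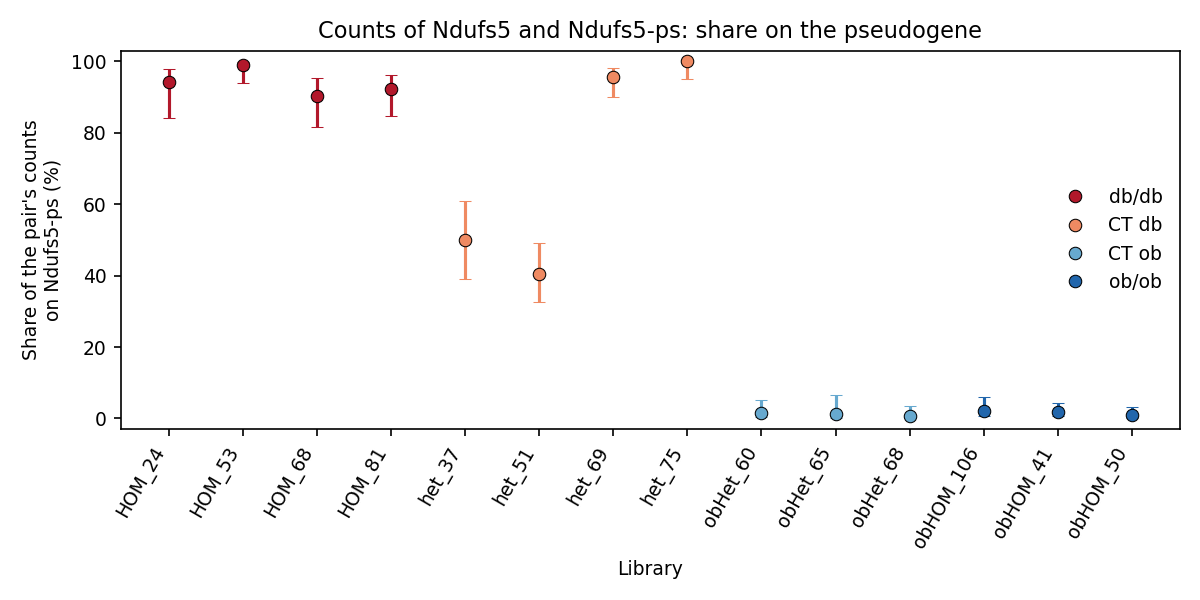
Share of the counts of Ndufs5 and Ndufs5-ps that was assigned to Ndufs5-ps (y axis, percent) in each of the 14 libraries (x axis), with Wilson 95% intervals as bars and groups by colour. The libraries het_37 (50.0%) and het_51 (40.6%) lie between the ob model (at most 2.10%) and the other 6 db model libraries (at least 90.4%).

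Within the part that aligned, few bases tell the pair apart. The 319 bases of the pseudogene aligned without gaps to bases 100 to 418 of the 554-base Ndufs5 transcript, whose coding part runs from base 100 to base 417, and 317 bases were identical. The 2 differences in the reference genome (GRCm39, GENCODE M39) were T180C and A204G, with the base of Ndufs5 first, the position counted from 1 at the 5′ end of the transcript, and the base of Ndufs5-ps last. Both fall in exon 2 of Ndufs5, at chr4:123609792 and chr4:123609768. The stretch that holds both is shown because it holds both differences within the aligned part, with the bases that differ in capitals. It lies at chr4:123609756-123609804 (minus strand) for Ndufs5 and at chr16:42776062-42776110 (plus strand) for Ndufs5-ps.
Ndufs5: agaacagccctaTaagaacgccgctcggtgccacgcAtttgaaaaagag
Ndufs5-ps: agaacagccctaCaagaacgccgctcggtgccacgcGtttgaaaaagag

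Of the 245 windows of 75 bases (the read length) within the aligned part, 99 (40.4%) covered at least 1 of the differences and 146 were identical in both genes. The counts of this pair are uncertain for that reason, since how the counting handled reads with several matches is not stated. Of the 245 windows of Ndufs5-ps, 73 had an exact copy outside it without splicing. Counts per gene do not show which bases the mice of each colony carried at these positions.

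Zbtb8b encodes a zinc finger protein with a BTB domain (ENSMUSG00000048485, chr4:129319558-129334646, minus strand). It was low in db/db, with 5.14 CPM in HOM_24, 0 in HOM_53, 2.18 in HOM_68 and 2.83 in HOM_81. The CT db libraries had 29.1 CPM in het_37, 37.3 in het_51, 15.5 in het_69 and 2.74 in het_75. The ob/ob libraries had 50.0, 19.5 and 59.0 CPM in obHOM_106, obHOM_41 and obHOM_50, and the CT ob libraries 23.7, 61.2 and 29.2 CPM in obHet_60, obHet_65 and obHet_68. CT db thus spanned both patterns, with het_75 inside the range of db/db and het_37 and het_51 inside that of the ob model. The means were ordered ob/ob (42.9 ± 20.7), CT ob (38.0 ± 20.2), CT db (21.1 ± 15.2) and db/db (2.54 ± 2.12), and each overlapped the next. The ob model mean was 15.9 times that of db/db, with a pooled ratio of 16 (95% counting interval 10.8 to 24.5).

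Tent5b encodes a protein of a family of non-canonical poly(A) polymerases (ENSMUSG00000046694, chr4:133207438-133215249, plus strand). It had 0 counts in all 4 db/db libraries. The CT db libraries had 0.283 CPM in het_37 (1 count, under the floor of detection), 2.78 in het_51, 2.48 in het_69 and 1.10 in het_75. The ob/ob libraries had 18.1, 3.48 and 2.85 CPM in obHOM_106, obHOM_41 and obHOM_50, and the CT ob libraries 19.1, 5.01 and 2.40 CPM in obHet_60, obHet_65 and obHet_68. The highest level of each ob model group was thus more than 3 times the next. The order of the means was CT ob (8.83 ± 8.97), ob/ob (8.13 ± 8.61), CT db (1.66 ± 1.18) and db/db (0). CT ob overlapped both ob/ob and CT db, ob/ob lay just above CT db (2.85 against 2.78 CPM), and db/db lay below all others. Against the floor of 3 counts per library, the ob model mean was at least 7.02-fold higher than db/db.

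Wdfy1, on chromosome 1, encodes a WD repeat protein with a FYVE domain that has been described as an adaptor of Toll-like receptor signalling (ENSMUSG00000073643, chr1:79679017-79753860, minus strand). Levels in db/db were 66.0 CPM in HOM_24, 52.3 in HOM_53, 57.0 in HOM_68 and 52.4 in HOM_81. The CT db libraries had 54.2 CPM in het_37, 62.3 in het_51, 11 in het_69 and 62.8 in het_75. Thus 3 of the CT db libraries matched db/db, and het_69 lay within the range of the ob model. That range was 13.5, 10.7 and 12.4 CPM in obHOM_106, obHOM_41 and obHOM_50, and 8.87, 10.5 and 7.89 CPM in obHet_60, obHet_65 and obHet_68. The means fell from db/db (56.9 ± 6.41) through CT db (47.6 ± 24.7) and ob/ob (12.2 ± 1.42) to CT ob (9.10 ± 1.33), with no overlap between ob/ob and CT ob and overlap between the other neighbours. The db/db mean was 5.34 times the ob model mean.

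AA465934, on chromosome 11, is a long non-coding RNA (ENSMUSG00000093483, chr11:83182464-83185897, plus strand) whose function is not given in the annotation. Its db/db levels were 53.1 CPM in HOM_24, 19.9 in HOM_53, 45.3 in HOM_68 and 34.5 in HOM_81. For CT db they were 35.6 CPM in het_37, 14.6 in het_51, 8.83 in het_69 and 28.5 in het_75. The ob/ob libraries had 7.82, 11.6 and 7.30 CPM in obHOM_106, obHOM_41 and obHOM_50, and the CT ob libraries 5.40, 6.27 and 6.52 CPM in obHet_60, obHet_65 and obHet_68. As for Wdfy1, het_69 was the only CT db library within the range of the ob model. The order was db/db (38.2 ± 14.4), CT db (21.9 ± 12.3), ob/ob (8.89 ± 2.32) and CT ob (6.06 ± 0.588), and only the last neighbours did not overlap. The db/db mean was 5.11 times that of the ob model.

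**Figure D2:**
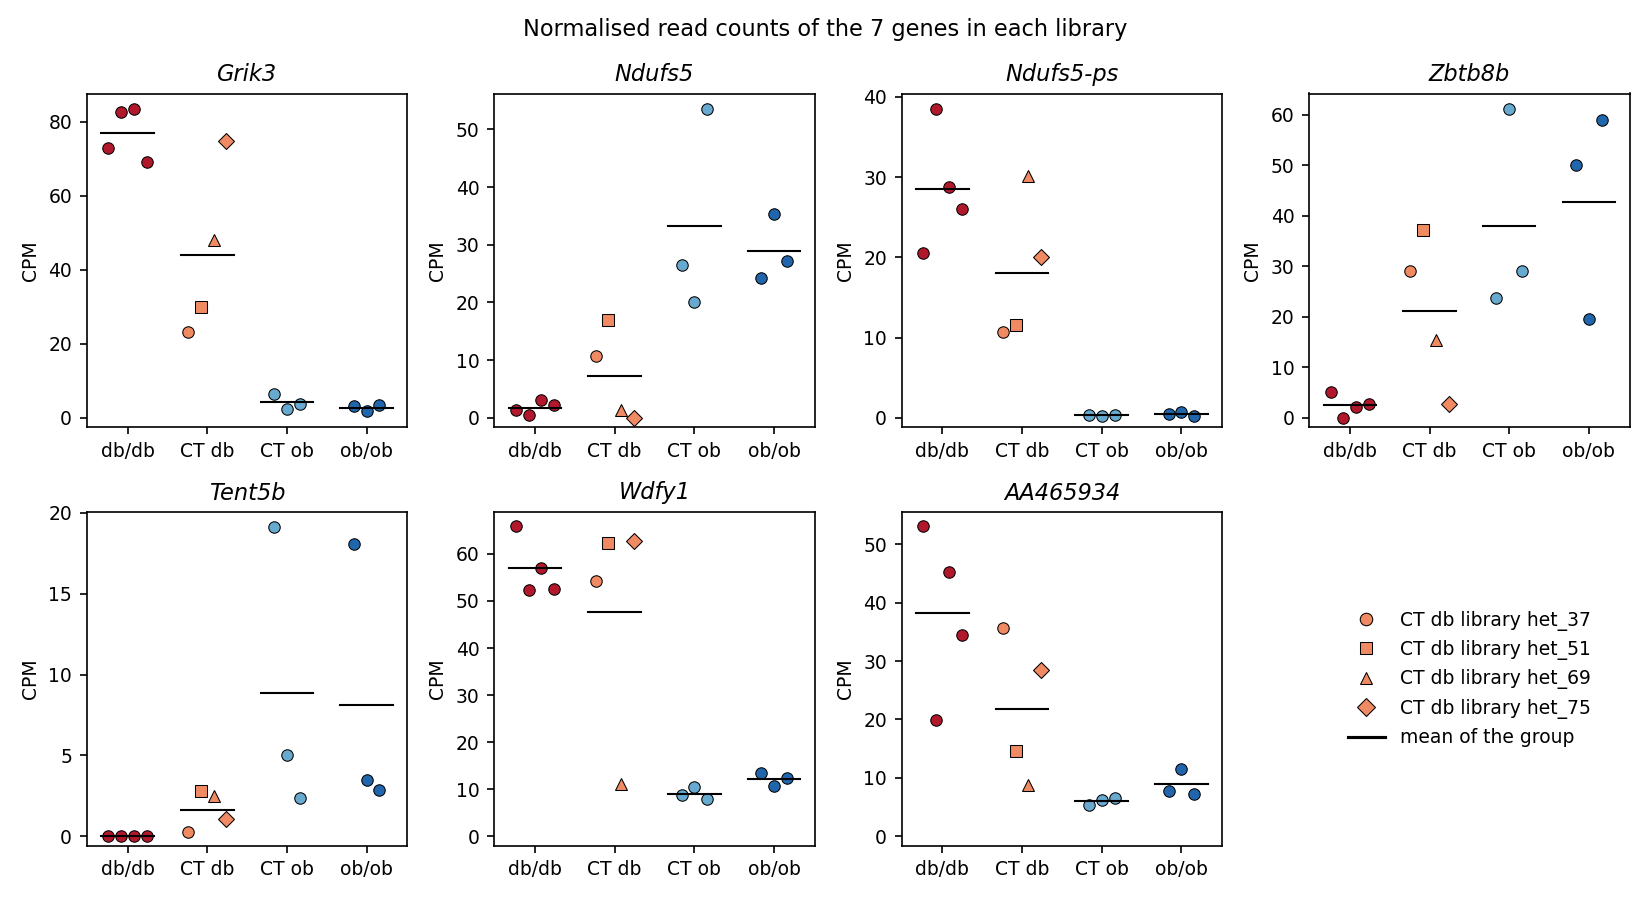
Normalised read counts (y axis, CPM, linear axis from 0) of the 7 genes by group (x axis), with 1 point per library and a line at the group mean. Each CT db library has a symbol of its own, and for Wdfy1 they spread from the level of db/db (62.8 CPM in het_75) to that of the ob model (11 in het_69).

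All 7 genes had db/db libraries that did not overlap those of the ob model. Of all 12586 genes tested in the fit of 14 libraries, 738 (5.86%) met the same rule. Only 3 of the 7 (Grik3, Ndufs5 and Ndufs5-ps) also had no overlap once CT db was added to db/db, as did 142 of all genes (1.13%). In edgeR's quasi-likelihood fit, 907 of all genes (7.21%) were called at an adjusted p of 0.05 or less in the colony difference averaged over genotypes, 466 higher and 441 lower in the db model. Between the controls 834 genes (6.63%) were called, and between the mutants 2 (0.0159%). These counts include the chosen genes, with 7 of them in the averaged difference and 4 between the controls. The 2 calls between the mutants were Grik3 and Ndufs5-ps, so no other gene was called there. The 7 were chosen by such differences, so their own calls are not a result. The call counts depended on the libraries. Leaving out 1 library at a time gave 209 to 1266 calls in the averaged difference, and leaving out obHet_60 and obHOM_106, the 2 libraries with the most oocyte marker counts, gave 15 (an alternative chosen after seeing the data).

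No single order of the CT db libraries held over the 7 genes. Each library was placed on a scale for each gene from 0, the mean of the ob model, to 1, the mean of db/db. The library het_75 was at 0.75 or more for 5 genes and between 0.25 and 0.75 for the others, Ndufs5-ps (0.699) and AA465934 (0.685). In het_69, Ndufs5 (1.01) and Ndufs5-ps (1.06) were at the level of db/db, while Wdfy1 (0.00831) and AA465934 (0.0441) were at that of the ob model. The library het_51 had Wdfy1 at 1.12, Zbtb8b at 0.0840 and AA465934 at 0.230, with the other 4 genes between 0.360 and 0.672. The library het_37 had Tent5b (0.967), Wdfy1 (0.942) and AA465934 (0.915) near 1, and Grik3 lowest at 0.267. So het_75 was nearest to db/db over the set, with a median position of 0.971, and het_69 changed sides between the pair Ndufs5 and Ndufs5-ps and the genes of chromosomes 1 and 11. The median positions of the others were 0.694 in het_37, 0.398 in het_51 and 0.659 in het_69. Among the 731 other tested genes whose db/db and ob model libraries did not overlap, the medians were 0.537 in het_37, 0.785 in het_51, 0.672 in het_69 and 1.01 in het_75. The 57 of these on chromosome 4 had medians of 0.423, 0.733, 0.651 and 0.995 in the same order. High positions in het_75 were therefore not particular to the 7 genes. On a log2 scale, intermediate libraries of genes near 0 in the ob model moved toward db/db, as for Grik3 in het_37 (0.61).

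**Figure D3:**
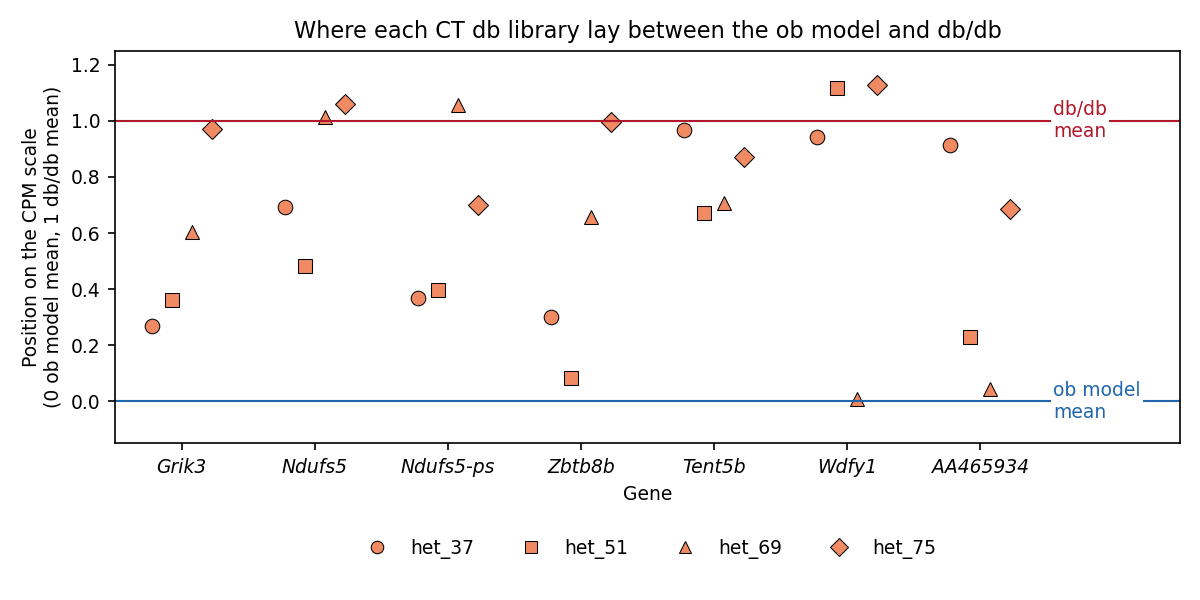
Position of each CT db library (symbols) for each of the 7 genes (x axis) on a linear CPM scale (y axis) where 0 is the mean of the 6 ob model libraries and 1 the mean of the 4 db/db libraries. The library het_69 is at 0.00831 for Wdfy1 and at 1.01 for Ndufs5, while het_75 is at 0.685 or more for every gene.

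All 7 genes were more variable among the CT db libraries than most genes. The SD of log2 CPM in CT db was 2.40 for Ndufs5, 1.60 for Zbtb8b, 1.20 for Wdfy1, 0.97 for Tent5b, 0.89 for AA465934, 0.74 for Grik3 and 0.68 for Ndufs5-ps, beside a median of 0.30 over all tested genes. These lay between the 86.7th percentile (Ndufs5-ps) and the 99.7th (Ndufs5) of all tested genes. The genes compared were not matched for level, and low counts can widen this SD. In CT db, Tent5b had 1 to 13 counts and Ndufs5 0 to 79. In db/db, Grik3 had an SD of 0.13 (12.1th percentile) and Wdfy1 0.16 (16.8th), so both varied less than most genes among the mutants. Zbtb8b, which had 0 to 12 counts there, was variable in db/db too, with 1.54 (99.0th). So were Ndufs5, with 0.85 (91.8th) from 1 to 7 counts, and AA465934, with 0.61 (82.8th). Among the CT ob libraries the SD was 0.72 for Ndufs5 (82.3th percentile), 0.71 for Zbtb8b (81.7th), 0.60 for Grik3 (74.3th), 0.20 for Wdfy1 (23.1th) and 0.13 for AA465934 (12.4th). Tent5b varied most in the ob model, with an SD of 1.41 in CT ob and 1.36 in ob/ob.

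The effect of genotype within a model was tested over all genes. The counts of these libraries were known when the 7 were chosen, so their own values are given without p-values, with counts of calls as a description. Within the db model the edgeR fit kept 5 of the 7 genes (Ndufs5 and Tent5b were too low) and called 0 of them, beside 1 of all 11317 genes (0.00884%). At an unadjusted p under 0.05 there were 859 genes, and DESeq2 called 44 genes and 0 of the 7. Zbtb8b had a log2 fold change of -3.04 in db/db against CT db (SE 0.770). For Grik3 it was 0.80 (SE 0.295), and for Ndufs5-ps, AA465934 and Wdfy1 it was 0.65, 0.81 and 0.25. With no filter on low counts (every gene with at least 1 count), edgeR called 270 of 28505 genes in this comparison, and Zbtb8b, Grik3 and AA465934 were among them. Under the other alternatives none of the 7 was called.

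The call in the db model was a single gene, Sfrp4, a secreted antagonist of Wnt signalling on chromosome 13. It had 1.29, 0.432, 1.74 and 2.2 CPM in HOM_24, HOM_53, HOM_68 and HOM_81 and 20.6, 26.8, 33.1 and 26.3 CPM in het_37, het_51, het_69 and het_75. Each CT db library was above each db/db library, with a log2 fold change of -4.16 (SE 0.344, edgeR adjusted p = 0.000644). The call was lost with 1 fit of all 14 libraries, in which edgeR called 0 genes in the db model (750 at an unadjusted p under 0.05). In the ob model Sfrp4 was at 199 CPM in obHet_65 and between 0.139 and 4.12 CPM in the other 5 libraries.

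In the ob model, 6 of the 7 genes were tested (Ndufs5-ps was too low) and edgeR called 0 of them and 0 of all 12425 genes (0%). At an unadjusted p under 0.05 there were 1014 genes. DESeq2 called 86 genes and 0 of the 7. The log2 fold changes of ob/ob against CT ob ran from -0.60 for Grik3 (SE 0.521) to 0.55 for AA465934 (SE 0.363). Without obHet_60 the value of Grik3 was -0.154, and without obHOM_41 that of AA465934 was 0.32. The difference of the genotype effects between the models (interaction) was fitted for all 7. It holds the difference between db/db and ob/ob, by which the 7 were chosen, so their values and calls in it are a description. Here edgeR called 0 of them and 0 of 12586 genes (0%), with 1021 genes at an unadjusted p under 0.05. DESeq2 called 72 genes and 0 of the 7. The log2 difference was -3.21 for Zbtb8b (SE 1.02), -1.86 for Ndufs5 (SE 1.19) and 1.43 for Grik3 (SE 0.565). For AA465934, Ndufs5-ps and Wdfy1 it was 0.25, 0.15 and -0.16. The fitted difference of Tent5b is no bound because db/db was at 0. With no filter on low counts, Zbtb8b, Tent5b and Ndufs5 were among 329 of 34753 genes called in the interaction, and under the other alternatives none of the 7 was.

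On chromosome 4, 4 of the 7 genes lay on the same side of Lepr, at distances of 21.9 Mb (Ndufs5), 23.7 Mb (Grik3), 27.6 Mb (Zbtb8b) and 31.5 Mb (Tent5b). The remaining genes were on chromosomes 1, 11 and 16. Close to Lepr itself, the share of genes called was similar to that of all genes. Within 20 Mb of Lepr, 12 of 183 tested genes (6.56%) were called in the averaged colony difference, 6 higher and 6 lower in the db model, beside 7.21% of all tested genes. The share was 5 of 86 (5.81%) within 10 Mb, all 5 higher, and 41 of 424 (9.67%) within 40 Mb, 17 higher and 24 lower, with the 4 chosen genes left out. Around Lep on chromosome 6 it was 14 of 148 (9.46%) within 20 Mb. Genes are not replicates, and these shares were not tested. By DESeq2's calls the share within 20 Mb of Lepr was 12%, beside 12.4% of all tested genes. When 1 library was left out at a time, the edgeR share within 20 Mb ran from 1.60% (without obHOM_106) to 8.90% (without obHOM_41), beside 1.61% and 9.02% of all tested genes.

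The direction of the calls on chromosome 4 differed between the sides of Lepr. From 0 to 100 Mb, 23 of 271 tested genes were called (8.49%), 18 higher and 5 lower in the db model, and from 110 to 160 Mb 39 of 420 (9.29%), 8 higher and 31 lower, which was not tested. The 4 chosen genes are left out of these counts and of those below. Chromosome 4 as a whole had 63 calls among 751 tested genes (8.39%). The share was 9.75% on chromosome 13 and 8.42% on chromosome 9. Directions were uneven on some other chromosomes too, with 36 higher and 11 lower on chromosome 3 and 18 higher and 36 lower on chromosome 7. They were near even on others, such as chromosome 17 (23 and 25). Sides of other chromosomes were not compared. On chromosome 4 from 100 to 110 Mb, which holds Lepr, 1 of 60 genes was called (1.67%). From 120 to 130 Mb, which holds Grik3, Ndufs5 and Zbtb8b, 8 of 91 were called (8.79%), 5 higher and 3 lower. From 130 to 140 Mb, which holds Tent5b, 10 of 110 were called (9.09%), 1 higher and 9 lower. From 140 to 150 Mb there were 13 calls in 80 genes (16.2%), 1 higher and 12 lower, and from 150 to 160 Mb 2 in 71 (2.82%). Without obHet_60 and obHOM_106 only 1 gene of chromosome 4, with the chosen genes counted, was called, so these shares rest on the libraries used.

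**Figure D4:**
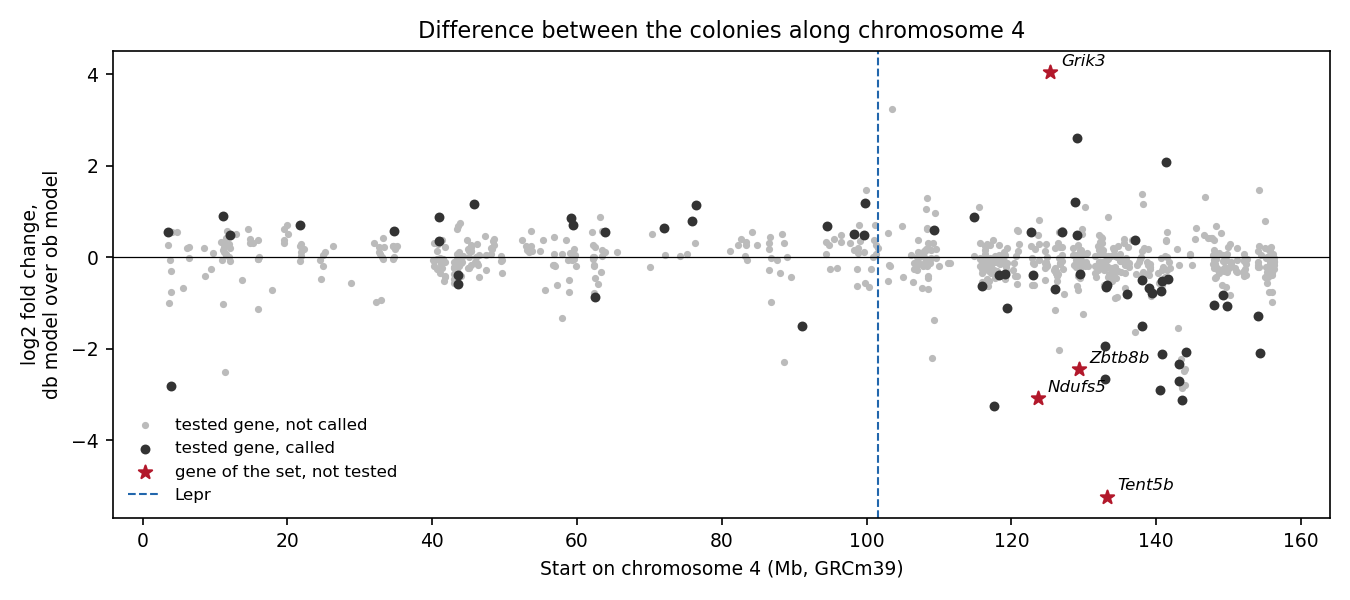
Log2 fold change of the db model over the ob model, averaged over genotypes (y axis), of the tested genes of chromosome 4 by start position (x axis, Mb, GRCm39), with called genes in black, 4 of the chosen genes as stars and Lepr as a dashed line. The stars lie 21.9 to 31.5 Mb beyond Lepr, and 12 of 13 calls from 140 to 150 Mb are below 0.

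Within 10 Mb of one of the 4 chromosome 4 genes, 32 of 293 tested genes were called (10.9%), 8 higher and 24 lower in the db model, with the 4 genes left out. Fndc5, which encodes the precursor of the hormone irisin, lay between Grik3 and Zbtb8b. It had 93.0, 297, 243 and 135 CPM in HOM_24, HOM_53, HOM_68 and HOM_81 and 19.2, 62.9, 128 and 106 CPM in het_37, het_51, het_69 and het_75. In ob/ob it was at 86.4 CPM in obHOM_41 and at 8.16 and 7.92 in obHOM_106 and obHOM_50, and its mean in CT ob was 12.1 ± 7.88. All db/db libraries were above all ob model libraries, and het_37 and het_51 lay within the range of the ob model. Its averaged log2 fold change was 2.61 (SE 0.594, edgeR adjusted p = 0.0235). Azin2, an antizyme inhibitor of polyamine metabolism in the same region, had means of 20.7 ± 4.91 CPM (db/db), 11.9 ± 4.91 (CT db), 7.70 ± 2.26 (ob/ob) and 5.98 ± 2.37 (CT ob), with an averaged log2 fold change of 1.20 (SE 0.268, edgeR adjusted p = 0.0219). Its CT db positions were 0.0568 in het_37, 0.140 in het_51, 0.842 in het_69 and 0.437 in het_75. In both genes het_37 was the CT db library nearest to the ob model and het_69 the nearest to db/db. Of the genes named next, het_37 was also nearest to the ob model for Ddost (0.616), Akr7a5 (0.641) and Necap2 (0.970). That library was het_51 for Slc25a34 (0.217) and Cd164l2 (0.667), and het_69 for Map3k6 (0.554), Cmpk1 (2.23) and Spata21 (0.920). For Cmpk1 and Spata21, but not the others, het_69 was also the nearest to db/db. The other genes with the smallest p-values in this region were Slc25a34 (2.09) and Cmpk1 (0.87), higher in the db model, and Ddost (-0.50), Akr7a5 (-0.68), Cd164l2 (-2.67), Map3k6 (-1.94), Necap2 (-0.53) and Spata21 (-2.13), lower (averaged log2 fold change, edgeR adjusted p between 0.00679 and 0.0236). Cd164l2 and Map3k6 were highest in obHOM_106 and obHet_60, the libraries highest in oocyte markers. Cd164l2 was at 14.1 and 21.8 CPM there, and at 4.58 to 6.18 in the other ob model libraries. Map3k6 was at 10.6 and 10.02 CPM there, and at 3.06 to 6.02 in the others. The db model libraries had 0.274 to 3.85 CPM of Cd164l2 and 0.314 to 3.59 of Map3k6. None of the other genes listed as lower peaked in both libraries. The part of the oocyte markers in these calls was not tested.

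The nearest tested genes beside the 7 were looked up in the averaged difference, in which 7.21% of all tested genes were called. Those called were Nudc beside Tent5b (log2 fold change -0.61, SE 0.172, adjusted p = 0.0452) and Gm9968 beside Ndufs5-ps (1.34, SE 0.379, adjusted p = 0.0452). Neither Meaf6 nor Mrps15 beside Grik3 was called (-0.20 and -0.28, adjusted p = 0.374 and 0.182). The neighbours of Ndufs5 were Macf1 (0.18, adjusted p = 0.549) and Akirin1 (0.48, adjusted p = 0.0778). Those of Zbtb8b were Zbtb8a, a gene of the same family (-0.73, adjusted p = 0.0601), and Bsdc1 (-0.17, adjusted p = 0.572). Gm19522 beside Ndufs5-ps had 0.18, Acsl3 beside Wdfy1 -0.04 and Slfn14 beside AA465934 1.07, with adjusted p-values from 0.224 to 0.913. The neighbours named on chromosome 4 thus had log2 fold changes between -0.73 and 0.48.

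Some of the 7 overlap other genes, and the strand setting of the counting is not stated, so reads of overlapping genes cannot be told apart with certainty. Ndufs5-ps lies inside Zbtb20, a zinc finger gene on the same strand, which had 808 to 5012 counts per library. Zbtb20 averaged 488 ± 134 CPM (db/db), 422 ± 101 (CT db), 490 ± 188 (ob/ob) and 428 ± 40.2 (CT ob), with an averaged log2 fold change of -0.01 (adjusted p = 0.976). Mrpl44 overlaps the 5′ start of Wdfy1 on the opposite strand and did not follow it, with -0.14 (adjusted p = 0.613). AA465934 contains Snord7, a small nucleolar RNA gene with 1 to 12 counts per library (0.33, adjusted p = 0.710). Gm13257, antisense to Tent5b, had 0 counts in every library.

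Across the 14 libraries the 7 genes followed each other in opposite sets, as their choice implies. On the log2 CPM scale Pearson's r was 0.971 between Grik3 and Ndufs5-ps, 0.904 between Wdfy1 and AA465934, and -0.885 between Grik3 and Ndufs5. These were the strongest pairs, and the weakest was Zbtb8b with Wdfy1 (-0.627). The libraries come from separate colonies and also differ within them, so each r is a description and carries no p. Among 12579 other tested genes, the most similar to Grik3 were Gm48204 (r = 0.953), Gm38243 (0.896) and Dntt (0.866). Gm38243 (0.908) and Gm48204 (0.907) were also the most similar to Ndufs5-ps, followed by Dock8 (0.884). For Ndufs5 they were Pde1b (0.896), Cercam (0.895) and Iba57 (0.889), and for Zbtb8b Akr1c13 (0.872), Rims2 (0.862) and Gm41609 (0.859). Tent5b was most like Mtus1 (0.978), Vil1 (0.961) and Omt2b (0.953). Within the ob model these genes, like Tent5b, were highest in obHOM_106 and obHet_60, the libraries highest in oocyte markers. Mtus1 was at 49.3 and 57.8 CPM there and at 13.1 to 20.8 in the other ob model libraries. The part of the oocyte markers in these r values was not tested. Wdfy1 was most like Gm48885 (0.904), Vapa (0.883) and Acot6 (0.881), and AA465934 like Pex26 (0.909), Ppfibp1 (0.893) and Pnisr (0.873). The genes most alike changed with the measure, since by Spearman's correlation 0 or 1 of the 3 were the same for every gene of the set except AA465934.

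Other members of the genes' families were looked up in the colony differences, in which edgeR called 7.21% (averaged) and 6.63% (between controls) of all tested genes. Of 46 tested genes of complex I other than Ndufs5, edgeR called 0 in the averaged difference (3289 of all genes had an unadjusted p under 0.05 and DESeq2 called 1566 of all genes), and between the controls it called Ndufb6 (log2 fold change 0.97, adjusted p = 0.00658) and Ndufa13 (-1.07, adjusted p = 0.0456). For Ndufa13, obHet_68 was at 218 CPM, the other CT ob libraries at 73.1 and 78.7, and the CT db libraries between 52.4 and 63.2. Among 20 listed ionotropic glutamate receptor genes and auxiliary subunits, 6 were tested. Of these, Grik5, another kainate receptor subunit, was called lower in the db model (-1.18, SE 0.301, edgeR adjusted p = 0.0332). Grik5 was at 33.3 CPM in obHet_68 and 16.5 in obHet_65. The other ob model libraries had 7.82 to 9.06 CPM and the db model libraries 2.83 to 8.28. Grin2c, an NMDA receptor subunit, was not called (1.74, adjusted p = 0.0508). Of the 4 Tent5 genes, 3 were tested, and Tent5c was called lower in the db model (-1.04, SE 0.288, adjusted p = 0.0431), while Tent5a was not (1.05, adjusted p = 0.108). Tent5c was at 100 CPM in obHOM_106 and 101 in obHet_60, the libraries highest in oocyte markers, while the other ob model libraries had 28.3 to 44.6 CPM and the db model libraries 20.8 to 38.1. The part of the oocyte markers in that call was not tested. Apart from the chosen genes, 0 of 4 tested genes of the Wdfy and Toll-like receptor list, 0 of 2 at the Zbtb8 locus and 0 of 4 in the neighbourhood of Lepr were called in any of the 3 colony differences. For the genotype effects and the interaction, edgeR called 0 genes of these 6 lists.

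Markers of other cell types were summed in each library, beginning with the oocyte. The summed level of the 9 oocyte markers was 5.57, 47.1, 56.1 and 6.91 CPM in HOM_24, HOM_53, HOM_68 and HOM_81 and 3.11, 236, 131 and 15.1 CPM in het_37, het_51, het_69 and het_75. It was 695, 198 and 122 CPM in obHOM_106, obHOM_41 and obHOM_50 and 1051, 279 and 67.6 CPM in obHet_60, obHet_65 and obHet_68. The ob model libraries were all above db/db, with obHet_60 and obHOM_106 highest, and overlapped CT db. The most abundant gene was Gdf9, an oocyte growth factor (Bmp15 in het_69), none of the 9 was at 0 in all libraries of a group, and 6 of 8 tested (Zp3, Nlrp5, Zp2, Ooep, Gdf9 and Zp1) were called lower in the db model in the averaged difference, and by edgeR 0 of 8 between the controls or between the mutants (3390 and 1030 of all genes had an unadjusted p under 0.05, and DESeq2 called 1563 and 72). Tent5b had the same order as this sum over the 6 ob model libraries, and the other 6 genes did not. The same held over the 4 CT db libraries, where the levels of Tent5b fell with the sum from het_51 through het_69 and het_75 to het_37. Across the groups of the db model the order did not hold. HOM_53 and HOM_68 had higher sums than het_37 and het_75 but 0 counts of Tent5b, with floors of 1.30 and 1.31 CPM. In het_37 and het_75 Tent5b was at 0.283 and 1.10 CPM. The part of the oocyte markers in the level of Tent5b was not tested. In these bulk libraries, fewer cells of a type and less RNA per cell cannot be told apart.

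The sums of the other marker lists also overlapped between the db and ob models. The 12 granulosa markers summed to 20277, 25171, 26886 and 23551 CPM in HOM_24, HOM_53, HOM_68 and HOM_81 and to 19200, 26235, 29059 and 29963 CPM in het_37, het_51, het_69 and het_75. They summed to 19091, 27164 and 23005 CPM in obHOM_106, obHOM_41 and obHOM_50 and to 11847, 12972 and 17150 CPM in obHet_60, obHet_65 and obHet_68. So CT ob was lower than the 3 other groups, and 2 of the 12 granulosa markers were called higher in the db model in the averaged difference and between the controls. The 5 theca markers summed to between 22.2 and 507 CPM for db/db, 43.8 and 169 for CT db, 12.1 and 75.6 for ob/ob and 15.2 and 277 for CT ob, led by Cyp17a1 in db/db and Cyp11a1 in the other groups, with Insl3 at 0 in both control groups. The sums of the 6 macrophage and leukocyte markers (at most 23.6 CPM, led by Lyz2 or Cd68, with Adgre1 at 0 in ob/ob), the 4 endothelium markers (at most 26.1, led by Cdh5, Pecam1 or Kdr) and the 6 stroma markers (at most 111, led by Acta2, Pdgfra or Col1a2) overlapped between all groups, except that the endothelium sums of CT ob lay above those of CT db and ob/ob. The 3 erythroid markers reached at most 82.0 CPM, nearly all from Alas2, with Hba-a1 at 0 in every library, and the sums of ob/ob (from 18.1 CPM) lay above those of db/db (at most 17.8) and CT db (at most 17.3). By edgeR, none of these 5 lists had a gene called in a colony difference. Of all tested genes 7.21% (averaged), 6.63% (between controls) and 0.0159% (between mutants) were called. Few genes of these lists were tested, with 4 of 5 for theca, 2 of 6 for macrophages and leukocytes and 2 of 4 for endothelium. For stroma it was 5 of 6 and for the erythroid list 1 of 3. So few genes cannot show that these cell types did not differ. The part of these cells in the levels of the 7 genes was not tested.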

How the data were processed

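The authors deposited raw counts per Ensembl gene, without normalization, from single reads of 75 bp. The paper names cutadapt, STAR, GRCm39 and featureCounts, while the submitters' processing fields name Trim Galore 0.6.2, HISAT2 2.1.0 and GRCm38, and this was not settled. Symbols and positions came from GENCODE M39 on GRCm39, by identifier, for 54749 of 55414 genes. Columns were assigned to groups by the study's list of columns under model and genotype, which their names match.

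From the deposited counts, edgeR 4.0.16 in R 4.3.3 gave TMM factors, CPM and quasi-likelihood tests. Genes passed filterByExpr (minimum count 10, minimum total 15). A Benjamini-Hochberg adjusted p over all tested genes of at most 0.05 was called. The db model (8 libraries) and the ob model (6) were fitted alone, and 1 fit of all 14 gave the interaction and the colony differences (db minus ob). Log2 CPM used a prior count of 2. The alternative tool was DESeq2 1.42.0. Across the comparisons, tests were checked on simulated counts.

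The members and lists were chosen with earlier results of these data known. The genes named were the 7, Lepr, Lep, their nearest tested neighbours, called genes of the lists, the 3 genes most like each and up to 10 called genes of chromosome 4 within 10 Mb by smallest p. Sfrp4 and overlapping genes were named after their values were seen.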

Additional observations from a re-analysis of the deposited data

Results flagged for a closer look

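In groups of 4 libraries, a library was singled out when its gap to the nearest other was large beside the range of the group. Of 34 groups examined over 17 measures, 3 had such a library, where chance gives about 1 in 20. The level of Wdfy1 in CT db had het_69 far below the others, at 11 CPM. The summed theca markers in db/db had HOM_24 far above the others, at 507 CPM. The total counts in CT db had het_51 far above the others, at 4840714.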

How the results depend on the processing

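No paired analysis was possible because the columns carry no replicate number. For the chosen genes, 283 of 303 alternative values of the genotype effects and interaction kept their direction and their side of the threshold. Calls of these genes arose only with no filter on low counts, as given above. The level of each gene in each group moved by less than 1 SD under RLE factors or library size alone (56 of 56 values). Of 56 positions of CT db libraries, 6 moved by more, all on the log2 scale, and 3 of 28 spreads moved with a prior count of 0.5. The causes of the changes below were not tested.

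Counts of calls moved with the tool, the filter and the libraries used. DESeq2 called 1566 genes in the averaged colony difference, 1563 between controls, 72 between mutants, 44 in the db model, 86 in the ob model and 72 for the interaction. With every gene with at least 1 count, edgeR called 1858, 1727, 535, 270, 359 and 329 genes in the same order. Scaling by library size alone gave 513 averaged, 261 between controls and 2 in the db model. With at least 10 counts in every library there was 1 call between mutants and 0 in the db model (785 genes at an unadjusted p under 0.05), where Sfrp4 could not enter. Summing Ndufs5 and Ndufs5-ps left 1 call between mutants. With 1 fit of all 14 libraries, edgeR called 0 genes in the db model (750 at an unadjusted p under 0.05) and 1 in the ob model. Without obHet_60 and obHOM_106, chosen after seeing the data, 15 genes were called in the averaged difference, with 2790 at an unadjusted p under 0.05. The share called within 20 Mb of Lepr was 12% by DESeq2.

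Leaving out 1 library at a time gave 209 to 1266 calls in the averaged difference, 112 to 1196 between controls, 2 to 3 between mutants, 1 to 4 in the db model (4 without HOM_68) and 0 to 1 for the interaction (1 without HOM_24). In the averaged difference the count was under the full count by more than 1.5 times without obHOM_106 (209), het_75 (263), HOM_81 (273), obHOM_50 (336), obHet_60 (413), HOM_53 (530), HOM_68 (539), het_51 (563) or HOM_24 (592). Between controls this held without obHet_68 (112), het_51 (138), het_75 (201), obHet_60 (376) or het_69 (482).

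Direction changed for some genes with no call. The interaction of Ndufs5 was 0.43 for the summed pair. Leaving out libraries moved the interaction of Ndufs5-ps between -0.18 and 0.51 and of AA465934 between -0.027 and 0.58. It moved the db model effect of Wdfy1 between -0.090 (without het_69) and 0.41. In the ob model it moved Ndufs5 between -0.45 and 0.32, Zbtb8b between -0.13 and 0.70 and Tent5b between -1.50 and 1.09.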
